A study of Rattus norvegicus with 20 samples.

Results

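The genes of fatty acid synthesis from sugar, the process called de novo lipogenesis, were followed in muscle and fat of the same rats. Of the 32883 genes in the deposited table, 5 were chosen by Ensembl identifier for their function in this pathway. They are Srebf1 (ENSRNOG00000003463), Acly (ENSRNOG00000016924), Acaca (ENSRNOG00000034013), Fasn (ENSRNOG00000045636) and Scd (ENSRNOG00000013552). Messenger RNA was sequenced from gastrocnemius, a calf muscle, and from abdominal white adipose tissue of 10 rats, giving 10 libraries of each tissue. The animals were Fischer 344 x Brown Norway rats, labelled as 8 months old, with no treatment named, and kept for 2 weeks on a reversed light cycle. Tissue was taken under isoflurane followed by decapitation and frozen. Every sample label says male, while the design text speaks of 5 males and 5 females, so no animal was assigned a sex and none was compared by it. The hour of collection and the feeding state were not given in the labels.

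In de novo lipogenesis, citrate that leaves the mitochondria is turned into acetyl-CoA by ATP citrate lyase (Acly). Acetyl-CoA carboxylase 1 (Acaca) makes malonyl-CoA from it, fatty acid synthase (Fasn) builds palmitate from both, and stearoyl-CoA desaturase (Scd) puts a double bond into the saturated product. SREBP-1, encoded by Srebf1, is a membrane-bound transcription factor that is cut free in the Golgi and, in its 1c form, activates these enzyme genes in response to insulin. Liver and white fat are the classic sites of the pathway. In muscle, malonyl-CoA is known mainly as a brake on fatty acid oxidation, a role usually given to the second carboxylase, which is not among the 5 genes.

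The stretches before the start sites of the genes are given because these genes are known targets of SREBP-1. Of the 5 genes, 3 had an entry in the RefSeq promoter table (build GRCr8), with 2 start sites for Srebf1. Fasn and Acaca had none. Each line gives the 250 bases before a start, with CCAAT boxes (CCAAT), GC boxes (GGGCGG), E-boxes (CACGTG) and the sterol element letters TCACNCCAC in capitals where found on either strand.
Srebf1, upstream start (chr10:45529165-45529414, minus strand): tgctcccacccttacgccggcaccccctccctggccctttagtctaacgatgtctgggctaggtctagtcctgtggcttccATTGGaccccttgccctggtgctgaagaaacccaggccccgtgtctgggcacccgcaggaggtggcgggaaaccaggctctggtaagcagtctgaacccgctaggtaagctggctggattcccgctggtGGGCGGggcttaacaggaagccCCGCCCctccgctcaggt
Srebf1, downstream start (chr10:45519011-45519260, minus strand): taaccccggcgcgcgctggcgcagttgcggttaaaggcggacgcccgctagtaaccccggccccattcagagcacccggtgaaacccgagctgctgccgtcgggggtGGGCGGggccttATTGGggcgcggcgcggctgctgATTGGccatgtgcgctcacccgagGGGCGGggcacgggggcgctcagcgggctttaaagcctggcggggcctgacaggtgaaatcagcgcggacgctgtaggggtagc
Acly (chr10:85963632-85963881, minus strand): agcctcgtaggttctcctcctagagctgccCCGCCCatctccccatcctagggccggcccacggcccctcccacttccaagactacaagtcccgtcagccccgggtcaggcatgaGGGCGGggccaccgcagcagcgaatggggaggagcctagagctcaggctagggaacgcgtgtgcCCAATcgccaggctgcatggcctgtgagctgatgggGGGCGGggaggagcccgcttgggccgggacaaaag
Scd (chr1:253231732-253231981, minus strand): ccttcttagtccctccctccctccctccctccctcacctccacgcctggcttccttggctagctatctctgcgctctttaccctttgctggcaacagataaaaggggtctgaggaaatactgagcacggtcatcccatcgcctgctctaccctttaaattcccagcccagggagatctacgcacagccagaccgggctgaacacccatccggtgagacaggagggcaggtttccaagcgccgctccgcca

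The downstream Srebf1 window held 2 CCAAT boxes and 2 GC boxes. The upstream Srebf1 window held 1 CCAAT box and 2 GC boxes, and the Acly window held 1 CCAAT box and 3 GC boxes. The Scd window held none of the 4 motifs, and neither the E-box nor the sterol element letters were in any of the 4 windows. Of 33469 windows of the same length in the table, 34.0% held a CCAAT box, 30.5% a GC box, 5.59% an E-box and 0.974% the sterol element letters. The 2 starts of Srebf1 give 2 forms of the protein with different first exons. The deposited counts are summed per gene and cannot tell them apart.

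All 5 genes were higher in adipose tissue than in muscle (edgeR quasi-likelihood test, adjusted p below 0.05), by amounts that ran from 1.47-fold to 145-fold. Across the whole table, 42.2% of 13806 tested genes were called higher in adipose tissue, 37.6% higher in muscle and 79.8% in either direction, so a call alone says little about these genes. Fasn, Scd and Acly differed at least 8-fold in this direction, as did 8.95% of tested genes. Their libraries did not overlap between the tissues, which was the case for 24.5% of tested genes. Acaca and Srebf1 differed less and overlapped. In bulk tissue, fewer cells of a type and less RNA per cell cannot be told apart.

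**Figure D1:**
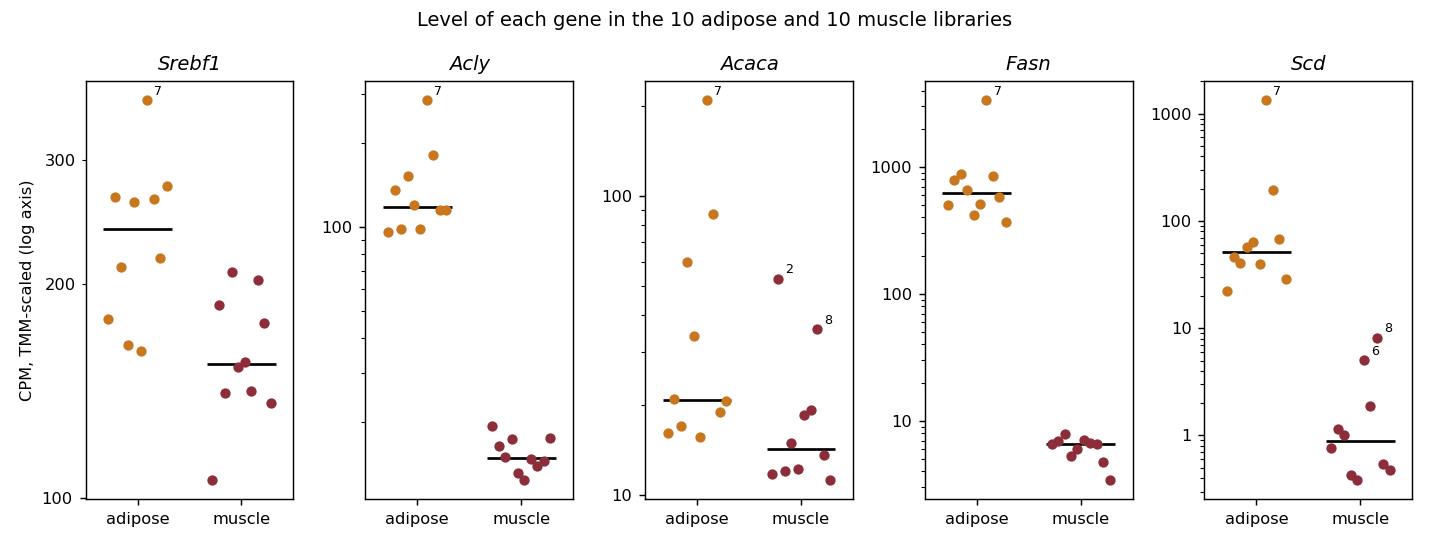
Level of each gene in every library, in TMM-scaled CPM on a log axis, with 1 point per animal and a black line at the median. Fasn, Scd and Acly of the 10 adipose libraries lie above all 10 muscle libraries, Srebf1 and Acaca overlap, and adipose library 7 is the highest for each gene.

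Srebf1, the regulator, was expressed in both tissues. Its level, in CPM (read counts scaled to library size, here with trimmed-mean (TMM) factors), ran from 161 in adipose library 6 through a median of 239.6 to 364 in adipose library 7. In muscle it ran from 106 in animal 1 through a median of 154 to 208 in animal 4. Only 7 adipose libraries lay above all muscle libraries, and the adipose level was the higher one in 9 of 10 animals, animal 4 being the exception. Adipose tissue averaged 236 ± 62.5 CPM and muscle 161 ± 32.4 (SD, n = 10), a log2 difference of 0.56 (SE 0.15, edgeR adjusted p = 0.00177).

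Acly, which supplies the acetyl-CoA, was clearly set apart between the tissues. Adipose libraries held 95.9 to 286 CPM with a median of 118, and muscle libraries 12.4 to 19.4 CPM with a median of 14.9. The groups did not overlap, and the adipose library held more Acly in 10 of 10 animals. The means were 140.1 ± 57.9 and 15.5 ± 2.17 CPM (SD, n = 10), a log2 difference of 3.18 (SE 0.18, edgeR adjusted p = 5.43e-13).

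Acaca, the enzyme usually named as the committed step, showed the weakest separation among the enzymes. Adipose libraries ran from 15.7 CPM in animal 6 through a median of 20.7 to 209 in animal 7, and muscle libraries from 11.2 CPM in animal 10 through a median of 14.3 to 52.9 in animal 2. The high adipose libraries were 7, 8 and 4, with 209, 87.0 and 60.2 CPM, and only these 3 lay above all muscle libraries. In muscle, libraries 2 and 8 stood at 52.9 and 35.8 CPM and the remaining 8 at no more than 19.3. The adipose level was the higher one in 8 of 10 animals. Adipose tissue averaged 49.95 ± 60.7 CPM and muscle 20.2 ± 13.6 (SD, n = 10). The log2 difference was 1.30 (SE 0.49, edgeR adjusted p = 0.0185), and it was 0.67 with an adjusted p of 0.112 in the same test without adipose library 7 and 0.89 with an adjusted p of 0.084 in limma-voom. The medians differed 1.45-fold. Muscle library 2 also stood at least 2-fold above each of the other muscle libraries for 155 of 10974 genes, against 0 to 19 genes in the other muscle libraries, and the part of this in its Acaca level was not tested. Acaca was not among the 155, since library 8 was within 2-fold of it.

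Fasn showed the largest difference of the 5 genes. Adipose libraries ran from 371 CPM in animal 10 through a median of 619 to 3369 in animal 7, and the second highest held 881. Muscle libraries ran from 3.43 to 7.87 CPM with a median of 6.62. The means were 893 ± 888 and 6.13 ± 1.32 CPM (SD, n = 10), a log2 difference of 7.18 (SE 0.43, edgeR adjusted p = 9.36e-13). Without animal 7 the adipose mean was 618 ± 188 CPM (SD) over the 9 remaining animals.

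Scd, the desaturase, ran over a wide range in both tissues. Adipose libraries ran from 22.4 CPM in animal 1 through a median of 51.6 to 1341 in animal 7, with 194 CPM in animal 8 as the second highest. In muscle the median was 0.885 CPM, with 8.16 CPM in animal 8 and 5.06 in animal 6, and the lowest was 0.385 in animal 5. These muscle levels rest on few reads, 4.5 to 83.5 per library, and Scd passed the filter on low counts through adipose tissue alone. The groups did not overlap, with a log2 difference of 6.57 (SE 0.96, edgeR adjusted p = 1.73e-06). Without adipose library 7 the log2 difference was 4.96, and DESeq2, which replaces outlying counts, gave 4.84. A second desaturase gene, Scd2, lies on the same chromosome, and the labels do not say how reads shared between such copies were counted.

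The size of these differences depended on how libraries were scaled. With library totals in place of TMM factors, the median log2 difference over the tested genes rose from 0.09 to 1.39. The log2 difference was then 1.84 for Srebf1, 4.49 for Acly, 2.58 for Acaca, 8.46 for Fasn and 7.86 for Scd. A change of scaling shifts all genes by nearly the same amount. By construction, the values therefore hardly moved when set against the median gene. Srebf1 stood 0.47 above it with TMM factors and 0.45 with library totals, Acaca 1.22 and 1.19, Acly 3.09 and 3.09, Scd 6.49 and 6.47, and Fasn 7.10 and 7.06, on the log2 scale. With library totals the Srebf1 libraries no longer overlapped between the tissues. Of the called genes, 52.9% were higher in adipose tissue with TMM factors and 85.8% with library totals.

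The low muscle levels were set beside those of genes nearly restricted to fat. For 151 such genes, picked from these libraries for at least 20 CPM in adipose tissue and at least 100 times the muscle level, the median gene stood in muscle libraries at 0.200% to 0.529% of its adipose level. These are values by library totals, and the choice of the genes keeps them low. Fasn stood in muscle at 0.226% to 0.544% of its median adipose level, within nearly the same range. Scd stood at 0.337% to 6.22%, Acly at 3.72% to 6.56%, Srebf1 at 18.0% to 39.0% and Acaca at 22.5% to 125%. Whether fat cells in the muscle samples supplied the Fasn reads there was not tested. Conversely, 170 genes nearly restricted to muscle stood in adipose libraries at 0.0295% to 1.57% of their muscle level, highest in libraries 3 and 1, and at 0.0704% in adipose library 7.

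Whether the messages of the genes stood in the same proportion in both tissues was tested on the ratio of 2 genes within a library, which does not depend on library scaling. Only the difference of a ratio between tissues is read, since a ratio of counts also holds the lengths of the genes. Of the 10 pairs, 9 differed between the tissues (exact sign-flip permutation test, two-sided, over the 10 rats, with Benjamini-Hochberg adjustment over 10 pairs). How often the ratio of any other genes differs was not tested. Of all tested genes, 79.8% were called between the tissues by edgeR, so this count alone says little about the pathway. The pairs also share genes, so the ratios depend on each other and on the level differences given above.

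The ratio of Acaca to Fasn shifted most among the enzymes. Its log2 value was -4.44 ± 0.84 in fat and 1.54 ± 0.70 in muscle (SD, n = 10). The lowest muscle value, 0.62 in animal 3, lay far above the highest adipose value, -3.29 in animal 8. The mean difference was -5.98 ± 0.97 (SD over 10 animals, exact sign-flip permutation test, p = 0.00195, the smallest this design allows, adjusted p = 0.00279). It was negative in 10 of 10 animals.

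Acly over Fasn also moved towards Acly in muscle, by a mean of -3.77 ± 0.51 for adipose tissue minus muscle, with 10 of 10 animals negative. Acly over Acaca moved the other way, from 2.02 ± 0.81 in fat to -0.19 ± 0.81 in muscle (SD, n = 10), a difference of 2.21 ± 1.02 with 10 of 10 animals positive. Both had an adjusted p of 0.00279 in the exact sign-flip permutation test. In adipose library 7 the log2 ratio of Acly to Acaca was 0.45, the lowest of the adipose values and below the 0.72 and 0.64 of muscle libraries 1 and 10.

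Srebf1 over each of Acly, Fasn and Scd was lower in adipose tissue in 10 of 10 animals, by means of -2.56, -6.33 and -5.32 on the log2 scale (exact sign-flip permutation test, adjusted p = 0.00279 for each). The enzymes other than Acaca thus differed more between the tissues than Srebf1 did. Srebf1 over Acaca was the pair that did not pass the test. Its difference was -0.35 ± 1.23 (SD over 10 animals, exact sign-flip permutation test, adjusted p = 0.371), with 5 animals on each side and a range of -2.35 to 1.85.

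Acaca over Scd differed by -4.97 ± 1.18 with 10 of 10 animals negative (SD, exact sign-flip permutation test, adjusted p = 0.00279). Acly over Scd differed by -2.76 ± 1.52 with 9 of 10 animals negative (SD, same exact test, adjusted p = 0.00488). For Fasn over Scd the difference was small, 1.01 ± 1.29 with 8 of 10 animals positive (SD, same exact test, adjusted p = 0.0369). That call was lost without pairing by animal (permutation test, adjusted p = 0.0748) and on leaving out animal 1, 2, 3, 6, 8 or 10, where the adjusted p was 0.0564 to 0.0738 in the exact test. All ratios with Scd rest on few muscle reads, 4.5 to 83.5 per library, and their size depends on the pseudocount. With 5 counts in place of 0.5, Srebf1, Acaca and Acly over Scd differed by -4.77, -4.45 and -2.24. Fasn over Scd then differed by 1.46. Each of these stayed past the exact test.

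**Figure D2:**
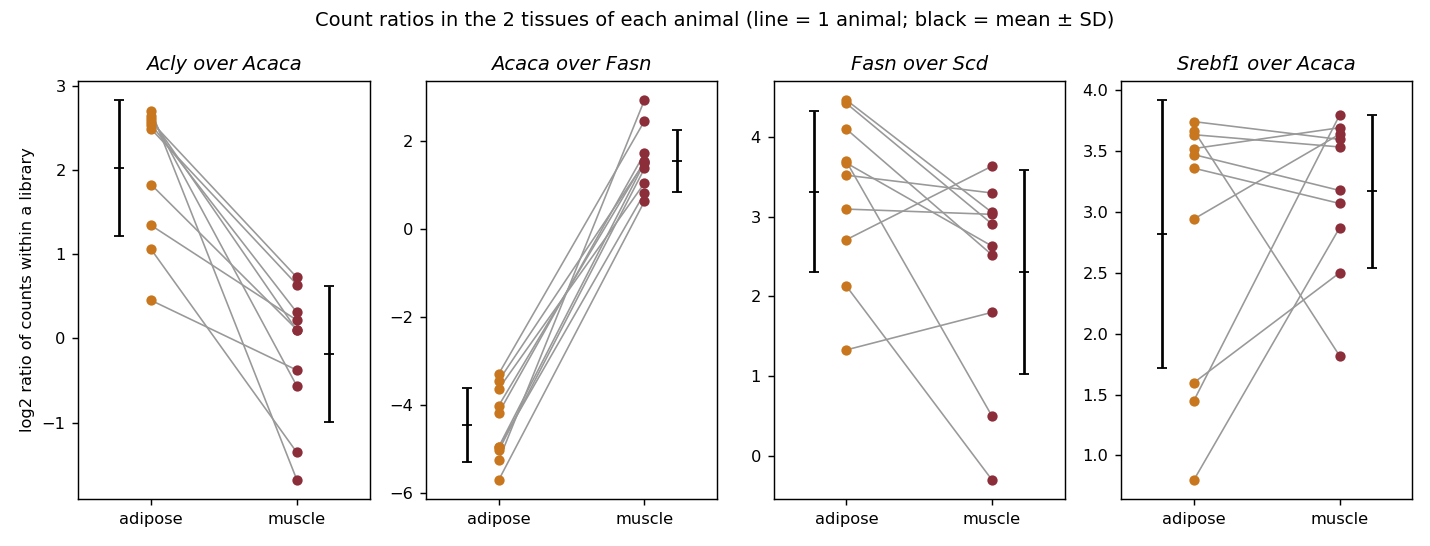
Log2 ratio of the counts of 2 genes within each library, with a grey line joining the adipose and muscle libraries of 1 animal and black bars for the mean ± SD of 10 animals. Acaca over Fasn rises from adipose tissue to muscle in each animal, Acly over Acaca falls in each, and Srebf1 over Acaca goes either way.

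The genes differed in how much they varied from rat to rat. Across adipose libraries, TMM-scaled within that tissue, the SD of log2 CPM was 1.72 for Scd, 1.28 for Acaca, 0.90 for Fasn, 0.50 for Acly and 0.38 for Srebf1, where the median gene had 0.38. Scd exceeded 99.7% of 12603 genes, Acaca 99.0%, Fasn 94.7%, Acly 68.5% and Srebf1 48.9%. Without adipose library 7 the SDs were 0.90 for Scd, 0.91 for Acaca, 0.45 for Fasn, 0.32 for Acly and 0.31 for Srebf1, so Scd and Acaca still exceeded 95.0% and 95.2% of genes while Fasn exceeded 65.6%. Across muscle libraries Scd (1.31) and Acaca (0.73) again had the largest SDs of the 5 genes, and Acly (0.21), Srebf1 (0.30) and Fasn (0.32) lay near the median gene at 0.29. The muscle SD of Scd rests on 4.5 to 83.5 counts per library and so also holds counting error, whose part was not tested. Scd did not pass the filter on low counts in muscle.

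**Figure D3:**
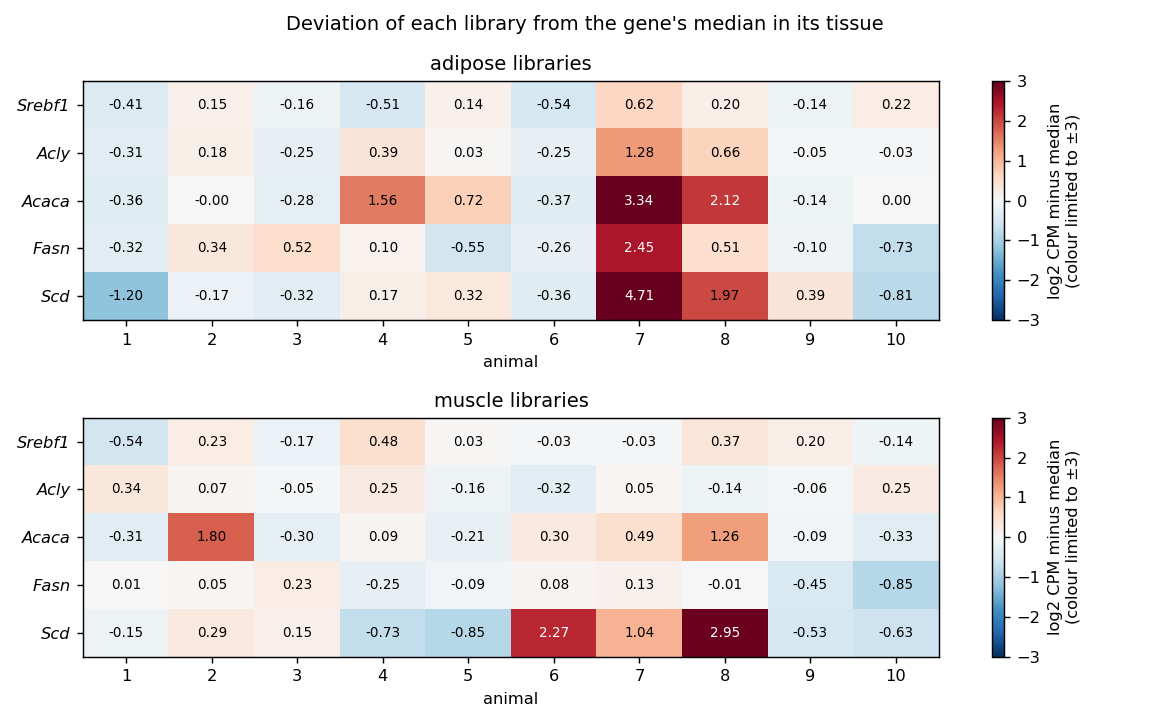
Log2 CPM of each library minus the median of its gene in that tissue, for 10 animals (columns) and 5 genes (rows), with the value in each field and colour limited to ±3. The adipose row of Scd reaches 4.71 in animal 7 and 1.97 in animal 8, and in muscle Acaca is high in animals 2 and 8 and Scd in animals 6 and 8.

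Adipose library 7 was the highest of its tissue for all 5 genes. It stood above the median by 4.71 for Scd, 3.34 for Acaca, 2.45 for Fasn, 1.28 for Acly and 0.62 for Srebf1 on the log2 scale. Adipose library 8 came next for Scd, Acaca and Acly, at 1.97, 2.12 and 0.66 above the median. Of 12603 genes, 23 stood in library 7 at least 2-fold above each of the other 9 adipose libraries, and 3 of these were Scd, Acaca and Fasn. In the other adipose libraries the number was 0 to 326, with 326 in library 4, and held none of the 5 genes. The total of library 7, 15577756 counts, lay within the 11067755 to 25904309 of the adipose libraries.

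The pairs of genes were then followed across the 10 adipose libraries by the correlation of log2 CPM. Acly and Acaca varied together most closely, with Pearson r = 0.97 and Spearman rho = 0.93 (permutation tests with 100000 resamples, two-sided, p = 0.00011 and 0.00039, adjusted over 10 pairs 0.0011 and 0.0039). Library 7 was not needed for this, since r was 0.93 without it (exact permutation test over 9 libraries, adjusted p = 0.0097) and 0.85 without libraries 7 and 8. Without libraries 7, 8 and 4, the highest for both genes, r was 0.64. Of 10988 other genes averaging 5 CPM or more in fat, 0.0637% had an r with Acly as high as 0.97, and 0.137% with Acaca.

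Scd followed these 2 enzymes. Its r was 0.93 with Acly and 0.91 with Acaca (permutation tests, adjusted p = 0.00257 for each), with rho of 0.77 and 0.75 (adjusted p = 0.0583 for each). Without library 7 these r values were 0.81 and 0.80 (exact permutation test over 9 libraries, adjusted p = 0.0272 for each), and without libraries 7 and 8 they were 0.56 and 0.53. Without libraries 7, 8 and 4 they were 0.51 and 0.54.

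Fasn followed the other enzymes largely through library 7. Over 10 libraries its r was 0.88 with Scd, 0.82 with Acly and 0.76 with Acaca (permutation tests, adjusted p = 0.0213, 0.0248 and 0.0295). Its rho was 0.58, 0.44 and 0.36, none past the test (permutation tests, adjusted p = 0.149, 0.255 and 0.348). Without library 7 its r was 0.50, 0.43 and 0.33 (exact permutation tests over 9 libraries, adjusted p = 0.411, 0.473 and 0.473), and without libraries 7 and 8 it was 0.15 with Acly and -0.01 with Acaca. Without library 8 alone its r stayed at 0.89 with Scd, 0.84 with Acly and 0.78 with Acaca. The relation of Fasn to the other enzymes by r therefore rests on library 7. Adipose library 3 had the second highest TMM-scaled Fasn level, 881 CPM, while its Acly, Acaca and Scd levels lay below their medians. By library totals its Fasn level was 1061 CPM, below the 1439, 1269 and 1185 CPM of libraries 8, 4 and 2. The 10 most abundant genes took 32.6% of its counts, the largest share among adipose libraries. Without library 3, and with library 7 kept, the r of Fasn was 0.92 with Scd, 0.90 with Acly and 0.82 with Acaca.

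**Figure D4:**
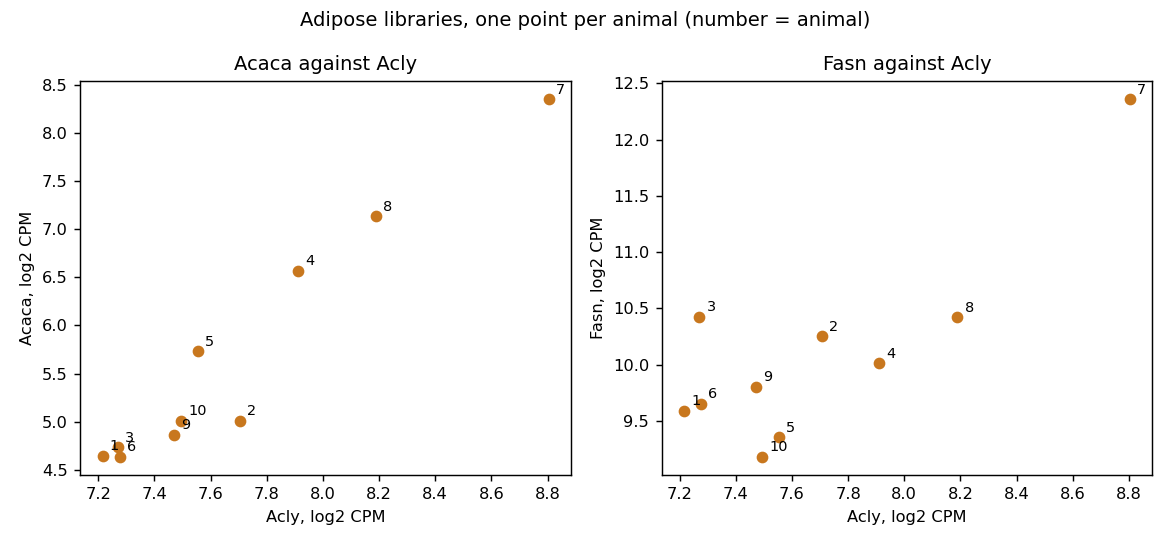
Log2 CPM of Acaca (left) and Fasn (right) against Acly in the 10 adipose libraries, 1 numbered point per animal. For Acaca and Acly r is 0.97 over all libraries, 0.93 without library 7 and 0.64 without libraries 7, 8 and 4. For Fasn the relation is carried by library 7 (r = 0.82 with it and 0.43 without it).

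Srebf1 had the lowest r values with the rest. By rho Fasn was lower than Srebf1 with Acly (0.44 and 0.60) and with Acaca (0.36 and 0.67). With Scd the rho of Fasn was the higher one (0.58 and 0.47). The r of Srebf1 was 0.69 with Scd and 0.68 with Acly (permutation tests, adjusted p = 0.0295 and 0.033), and 0.59 with Acaca and 0.55 with Fasn (adjusted p = 0.0834 and 0.0928, permutation tests). No rho of Srebf1 passed the test, the lowest adjusted p being 0.0983 for Acaca with rho = 0.67 (permutation test). Without library 7 its r was 0.0044 with Fasn, 0.24 with Acaca, 0.37 with Scd and 0.39 with Acly, and without libraries 7 and 6 it was -0.09, 0.10, 0.35 and 0.27. Other settings raised it: without library 4 it was 0.84 with Acly and 0.80 with Acaca (exact permutation tests over 9 libraries, adjusted p = 0.00429 and 0.00873), and without library 10 it was 0.80 with Scd and 0.71 with Fasn (same exact tests, adjusted p = 0.0139 and 0.0288). By library totals it was 0.72 with Acaca (permutation test, adjusted p = 0.022). In library 4 Srebf1 lay 0.51 below its median while Acaca lay 1.56 above.

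In all, 8 of 10 pairs passed the test by r over 10 adipose libraries and 1 by rho. Without library 7 the number was 3 by r, namely the pairs among Acly, Acaca and Scd. It was also 3 without library 8, but there the r of the lost pairs moved little: it was 0.89 for Fasn and Scd, 0.84 for Acly and Fasn, 0.78 for Acaca and Fasn, 0.66 for Srebf1 and Acly and 0.67 for Srebf1 and Scd, with adjusted p of 0.0653 to 0.069 (exact permutation tests over 9 libraries). All 10 pairs had a positive r with and without library 7, with a median of 0.79 and 0.41. These counts are read beside the share of the 10988 other genes that reach the same r. For Srebf1 and Acaca 23.8% of genes had an r with Acaca that was as high and 9.61% with Srebf1. For Srebf1 and Acly the shares were 15.3% with Acly and 5.21% with Srebf1, and for Acaca and Fasn 13.8% with Acaca and 1.54% with Fasn. For Acly and Scd they were 0.319% and 0.100%, and for Fasn and Scd 0.191% and 0.582%. An r of at least 0.8 was reached by 10.6% of genes with Acaca, 6.92% with Acly, 3.07% with Scd, 1.76% with Srebf1 and 0.892% with Fasn. By library totals 6 pairs passed the test by rho. Without library 7 the shares are those of 11007 other genes. For Acly and Acaca they were 0.209% with Acly and 1.18% with Acaca. For Acly and Scd they were 4.14% with Acly and 0.554% with Scd. For Acaca and Scd they were 9.75% with Acaca and 0.663% with Scd. The shares of the Fasn pairs rose without library 7. For Fasn and Scd they were 3.53% with Fasn and 16.4% with Scd. For Acly and Fasn they were 29.4% with Acly and 6.21% with Fasn. For Acaca and Fasn they were 36.9% with Acaca and 10.6% with Fasn. For the pairs with Srebf1 they ran from 18.2% to 51.4%.

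**Figure D5:**
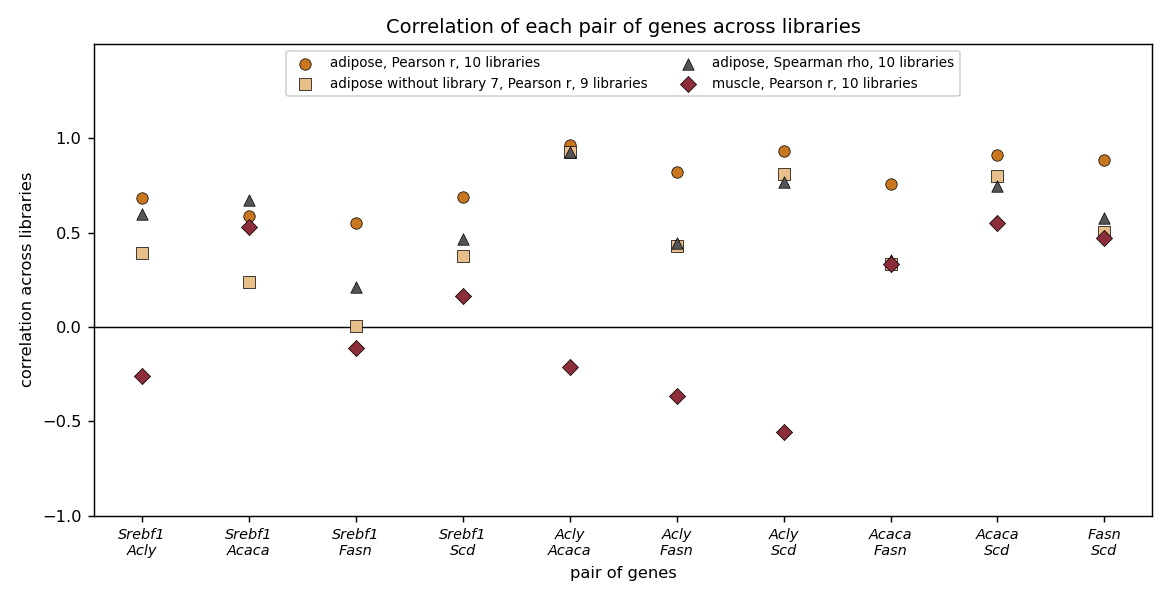
Correlation across libraries for each of the 10 pairs of genes: Pearson r over 10 adipose libraries, over 9 without library 7, Spearman rho over 10 adipose libraries, and Pearson r over 10 muscle libraries. The pairs among Acly, Acaca and Scd stay at 0.80 or above without library 7, and the muscle values lie between -0.56 and 0.55.

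Across muscle libraries 0 of 10 pairs passed the test by r or by rho, with 0 at an unadjusted p below 0.05 for r and 1 for rho (permutation tests). The r of Acly and Acaca was -0.21 there (permutation test, adjusted p = 0.697), beside 0.97 in fat. Acaca had its highest r with Scd, 0.55, and with Srebf1, 0.53 (permutation tests, adjusted p = 0.395 for each). Among other genes averaging 5 CPM or more in muscle, 23.1% had as high an r with Acaca as Scd had, and 24.4% as Srebf1 had. The shares were 7.96% with Scd and 12.7% with Srebf1. Whether the correlations differ between the tissues was not tested.

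A rat with a high level in fat was not shown to have a high level in muscle. The r between the tissues of the same animals was 0.51 for Fasn, 0.40 for Scd, 0.31 for Acaca, 0.07 for Srebf1 and 0.02 for Acly, and 0 of 5 passed the test (permutation tests, lowest adjusted p = 0.618). Fasn also had rho = 0.65 (permutation test, p = 0.0498, adjusted p = 0.249). In animal 7, the highest in fat for each gene, muscle Fasn, Acly and Srebf1 stood within 0.13 of their muscle medians on the log2 scale, while Scd stood 1.04 and Acaca 0.49 above, each the third highest muscle library. Animal 8, second in fat for Scd and Acaca, stood 2.95 and 1.26 above the muscle medians of these genes, the first and second highest muscle library. Other animals did not match. Animal 6 stood 2.27 above the muscle median for Scd but ranked 8 in fat. Animal 2 was highest in muscle for Acaca, 1.80 above the median, but ranked 6 in fat. Without the 2 animals farthest from the adipose median, r was -0.22 for Scd and -0.02 for Acaca. It was then 0.13 for Srebf1, 0.26 for Acly and 0.32 for Fasn.

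Library measures were set beside the adipose levels. Over 15 relations of the 5 genes with total count, the share of the 10 most abundant genes and the summed level of muscle-restricted genes, 0 passed the test by r (permutation tests, lowest adjusted p = 0.436) and 0 had an unadjusted p below 0.05. By rho 4 had an unadjusted p below 0.05 and 0 passed after adjustment (lowest 0.0755). The largest by rho were negative: -0.76 for Acly and for Acaca with the share of the most abundant genes, and -0.76 for Srebf1 with the muscle-restricted genes. Their part in the co-variation was not tested.

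The genes most like the set in fat were taken by the median of r with the 5 genes over 10 adipose libraries. ENSRNOG00000003050 led with a median r of 0.96, from 0.65 with Srebf1 to 0.97 with Acly and Acaca, and 0.90 without library 7. ENSRNOG00000016443 followed with 0.94, and 0.84 without library 7. Neither identifier is paired with a name in the files used here.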

How the data were processed

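Messenger RNA libraries were made from 300 ng of total RNA of about 10 mg of muscle or 30 mg of fat, per the labels' protocols. Per the submitters' processing notes, bcl2fastq, STAR and featureCounts were used with the build rn6. Versions, annotation, strandedness and the treatment of multi-mapped reads: not given in the sources used here. The authors deposited 1 table of expected counts, not scaled and not all whole, which were rounded for the count tests. Totals ran from 8446753 to 25904309 per library. Intervals and floors from counts would cover counting error only, since reads carry no molecular identifiers.

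The tissues were compared in R 4.3.3 with edgeR 4.0.16 (filterByExpr, TMM factors, robust quasi-likelihood test, no term for the animal, p-values adjusted by Benjamini-Hochberg over all genes in the test). SEs were derived from the F statistic. In simulated counts both groups had the adipose mean profile, with 99 genes changed 2-fold and 101 changed 4-fold. Over 13137 tested genes the fit recovered 69.5% of the tested 2-fold and 97.8% of the tested 4-fold changes. Of 161 calls, 5 were unchanged genes. Recovery where as many genes differ as between the tissues, 79.8% of those tested, was not simulated. Ratios used a pseudocount of 0.5 counts, and correlations log2 CPM with a prior count of 2. p-values from 100000 resamples cannot go below 1e-05. Libraries with the same number come from 1 rat, per the labels. Over 7634 genes their deviations had a median correlation of 0.11 (-0.22 to 0.45), against -0.03 between different rats. No 2 libraries agreed within sampling noise (lowest chi-square per degree of freedom 12.4).

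The members and lists were chosen with earlier results of these data known. The reference table holds no Ensembl identifiers for rat and 0 identifiers matched a name, so the lists of pathway genes and cell type markers, and the check of the tissues by markers, were not run. The rule for named genes took the 5 members and, without names, 2 identifiers by median r. Alternatives were upper-quartile and relative log expression factors, scaling by library totals, no or a stricter filter, the animal block, DESeq2 1.42.0, limma-voom (limma 3.58.1), leaving out the top 20 genes by abundance, another pseudocount or prior count, and libraries left out. DESeq2 without replacement of outlying counts, unrounded counts and the fit without adipose library 7 were added after seeing the data.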

Additional observations from a re-analysis of the deposited data

Results flagged for a closer look

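In 10 groups of 10 libraries (5 genes in each tissue), the gap of the highest and of the lowest library to its neighbour was divided by the range of the group. Chance exceeds that test's critical value in about 1 in 20 groups. In 1 case it was exceeded: Fasn in adipose library 7 stood at 12.36 on the log2 CPM scale, next to 10.42 for the nearest library, a gap of 0.609 of the range, above Dixon's 95% critical value. Scd in adipose library 7 did not exceed it, though it stood at 11.03, which is 4.71 above its median. Its nearest library was 8, at 8.29. The muscle library of the same animal did not stand apart for Fasn.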

How the results depend on the processing

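The direction of the tissue difference held for each of the 5 genes under each alternative that was run. Srebf1, Acly, Fasn and Scd stayed past the test in each of them. Acaca did not: its log2 difference was 0.89 with limma-voom and 0.67 without adipose library 7, both not past the test, and 0.66 to 1.68 when each animal was left out in turn, not past the test without animal 7. With the animal as a replicate block the log2 differences were 0.54 for Srebf1, 3.10 for Acly, 0.88 for Acaca, 6.85 for Fasn and 5.74 for Scd, and the block changed no call among these genes. The number of genes called stood between 10566 and 13894 under all alternatives. The ratio of Fasn to Scd kept its difference of 1.01 without pairing by animal but was then not past the test, and ran from 0.76 to 1.22 when each animal was left out. The other ratio calls kept their side of the threshold. The number of adipose pairs past the test by r was 3 to 9 when each animal was left out, 3 without animal 7, where r itself fell, and 3 without animal 8, where the r of Fasn and Scd was 0.89 beside 0.88 over all animals. The cause of these losses was not tested, beyond fewer libraries where one is left out. In muscle libraries, and between the tissues, the number stayed 0 under the alternatives run. Depth limits Scd in muscle, where the median library held 9.42 counts.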
